A study of Mus musculus with 10 samples.

Results

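The genes described here are the 7 MHC class II presentation genes H2-Aa, H2-Ab1, H2-Eb1, H2-DMa, H2-DMb1, Cd74 and Ciita, chosen by gene symbol from the 29564 genes of the deposited tables, without use of any measured value. All 7 were found. RNA of the left ventricle was sequenced in 10 mice, 5 control mice (numbered TT-583 to TT-587) and 5 HFD+mTAC mice (numbered TT-588 to TT-592). All 10 were wild-type males of the C57BL/6J strain (C57BL6 in the labels), and the labels give vehicle as the treatment of all 10. The dosing text of the labels (10 mL/kg each day over 6 to 9 weeks) stands on every sample but is worded for HFD+mTAC mice, and whether control mice followed the same schedule is not stated. HFD+mTAC mice were fed a high-fat diet (60% of kilocalories) and, at an age of 11 weeks, had the aortic arch narrowed moderately (moderate transverse aortic constriction, mTAC), which raises the pressure against which the left ventricle ejects. Control mice ate chow (10% of kilocalories as fat) and had no surgery, so that diet, surgery and their combination cannot be told apart here. Induction lasted 16 weeks before dosing, and the age at tissue collection is not given in the labels.

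MHC class II molecules are dimers of an α and a β chain that hold peptides of proteins taken up from outside the cell and show them to CD4+ T cells. The invariant chain Cd74 occupies the groove while the dimer travels to the endosome, and the H2-DM dimer then exchanges the last fragment of Cd74 for peptide. In the heart these genes are known mainly from macrophages, dendritic cells and B cells, and interferon-γ can induce them in other cells through Ciita, the transactivator that switches on the whole group.

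Each mouse had 34.2 to 53.7 M estimated counts, of which 12.7 to 21.1 M fell on protein-coding genes that are not mitochondrial. The tissue label was checked against ventricular genes, whose summed level was 16667 to 24050 TPM (transcripts scaled to a fixed total, a level corrected for transcript length), whereas atrial markers summed to 0.824 to 2.51 TPM. Among ventricular genes, Myl2, the ventricular myosin light chain, lay between 6934 and 9941 TPM, but Myh6, the main myosin heavy chain of the adult mouse ventricle, was listed at 17.7 to 37.1 TPM. The bulk tissue holds many cell types, and fewer cells of a type and less RNA per cell cannot be told apart. Mice TT-583 and TT-584 had the 2 highest TPM values of 4 of the 7 class II genes, and also the lowest share of counts on mitochondrial genes (43.8 and 44.0%, against 46.4 to 52.7% in the other 8 mice), while TT-586 stood apart for interferon-induced genes.

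In the GENCODE M21 annotation of GRCm38, 5 members lie in the MHC on chromosome 17. H2-DMa (34119541 to 34139101) and H2-DMb1 (34153072 to 34160230), the subunits of the H2-DM peptide exchanger, are followed on the same strand by H2-Ab1 (34257689 to 34269419), the β chain of the A dimer. H2-Aa, its α chain, is transcribed in the opposite direction (34282744 to 34287823), and H2-Eb1, the β chain of the E dimer, lies beyond it (34305867 to 34316674). Cd74 lies outside the MHC, and so does Ciita (chromosome 16, 10480059 to 10528418). H2-DMa overlaps Brd2 and Ciita overlaps Dexi, both on the opposite strand. H2-DMb1 has the near-identical neighbour H2-DMb2, between which reads can be split, so its values are uncertain to that extent.

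Class II promoters are known for conserved boxes bound by RFX, CREB and NF-Y, the complex on which Ciita acts. RefSeq windows of 300 bases around the start (250 before, 50 after, GRCm38.p6) were given for 4 members. The 130 bases just upstream of H2-Aa (chr17:34287824-34287953, minus strand) and H2-Eb1 (chr17:34305737-34305866, plus strand) are shown because both hold the same spaced letters, although the genes differ in level, as given below. Capitals mark GNAACT, a core of the X box, and ATTGG, the Y box read by NF-Y.
H2-Aa: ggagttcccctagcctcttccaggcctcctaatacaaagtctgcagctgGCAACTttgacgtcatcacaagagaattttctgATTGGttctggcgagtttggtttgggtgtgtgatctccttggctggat
H2-Eb1: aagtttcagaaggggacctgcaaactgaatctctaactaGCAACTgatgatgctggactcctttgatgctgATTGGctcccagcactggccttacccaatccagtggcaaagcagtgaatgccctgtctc

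The marked letters begin at −81 and −48 from the start of H2-Aa, with 27 bases between them, and at −91 and −59 from that of H2-Eb1, with 26 between. H2-DMb1 holds them at −94 and −61, with 27 between. The 2 windows of H2-DMa hold no such spacing. The letters and the spacing were chosen with these promoters in view. Read on both strands, GNAACT occurred in 42.8% and ATTGG in 37.4% of 32851 windows of the same length, and both in this order 15 to 40 bases apart on 1 strand in 1.13% (370 windows). A match is a description of letters and says nothing of binding in these hearts.

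The class II genes of the left ventricle spanned a wide range of levels in TPM. Cd74 had the highest mean over the 10 mice (24.8 TPM), above 94.6% of the 13301 genes tested. It was followed by H2-Ab1 (11.8 TPM, above 89.8%), H2-Aa (3.06 TPM, above 72.3%) and H2-DMb1 (1.52 TPM, above 59.3%). Each of these 4 was above the next in 10 of 10 mice. H2-Eb1 (0.0593 TPM), H2-DMa (0.0431 TPM) and Ciita (0.0329 TPM) formed a group near the bottom of the range of detected genes, above 10.2, 7.82 and 6.15% of genes. Their order did not hold within their spread, since H2-Eb1 was above H2-DMa in 5 of 10 mice and H2-DMa above Ciita in 7 of 10. For H2-DMa and Ciita the fitted transcript length exceeded the longest annotated transcript in 10 of 10 mice, as given below. Whether the low levels of H2-Eb1, H2-DMa and Ciita reflect the tissue or the quantification was not tested. Cd74 alone made up 55.9 to 68.1% of the summed TPM of the 7 genes in every mouse.

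**Figure D1:**
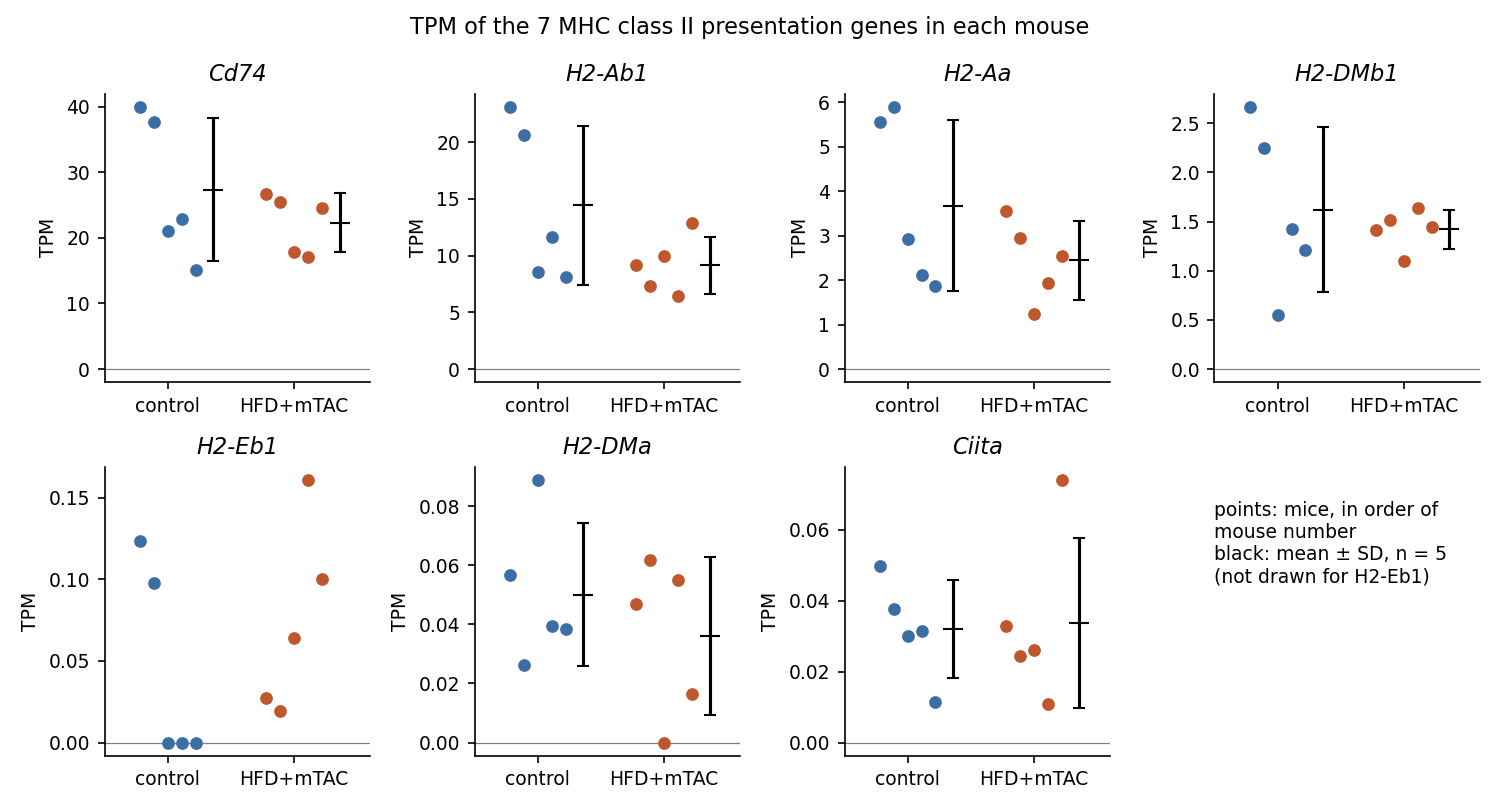
TPM of each of the 7 genes in control (blue) and HFD+mTAC mice (orange), 1 point per mouse in order of mouse number, with the mean and SD of 5 mice in black (not drawn for H2-Eb1, listed at 0 in 3 control mice). The 2 leftmost control points of Cd74, H2-Ab1, H2-Aa and H2-DMb1, TT-583 and TT-584, lie above all other mice, and the groups overlap in every panel.

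HFD+mTAC hearts were compared with control hearts to ask whether diet and pressure load changed class II expression. No member passed the test. Of 7 members, 6 were tested and 0 had an adjusted p under 0.05 with edgeR's quasi-likelihood test, where 0.0601% of all genes tested (8 of 13301) did, 0.0451% as higher and 0.0150% as lower. Also 0 of 6 had an unadjusted p under 0.05, where 8.26% of genes did (3.72% as lower), and 0 passed with DESeq2 or limma. The groups overlapped for all 6 members tested, so 0 of 6 were separated, against 1.96% of genes. The fitted log2 fold change was below 0 for 5 members and above 0 for 1, with a median of −0.22, whereas 49.7% of all genes tested were below 0 and their median was 0.00138. Of these 5, Cd74, H2-Ab1 and H2-Aa moved together from mouse to mouse, as given below, and are not separate observations.

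Cd74, the invariant chain, was at 40.01, 37.6, 21.1, 22.9 and 15.2 TPM in the control mice, in order of their numbers. In the HFD+mTAC mice it was at 26.7, 25.4, 17.9, 17.0 and 24.5 TPM. The 5 HFD+mTAC mice all lay inside the control range, below TT-583 and TT-584 and above TT-587. In CPM (counts scaled to a fixed library size by TMM, not corrected for length), Cd74 was 149 ± 47.1 in control and 128 ± 19.5 in HFD+mTAC mice (SD, n = 5 each). Its log2 fold change was −0.22 (SE 0.19, 95% interval −0.63 to 0.19) with an adjusted p of 0.824 in edgeR, and 0.617 to 0.976 over the alternatives. Without TT-583 the fold change was −0.07.

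H2-Ab1, the β chain that every C57BL/6J class II molecule of the A type carries, was at 23.1, 20.7, 8.55, 11.7 and 8.10 TPM in control mice. In HFD+mTAC mice it was at 9.14, 7.32, 9.92, 6.43 and 12.8 TPM. TT-583 and TT-584 were again the highest, and the other 3 control mice lay among the HFD+mTAC mice. In CPM the means were 44.7 ± 12.2 and 38.8 ± 5.46 (SD, n = 5 each). The log2 fold change was −0.21 (SE 0.17, 95% interval −0.57 to 0.16), with an adjusted p of 0.805 in edgeR and 0.663 to 0.975 over the alternatives. It was −0.07 without TT-583 and −0.13 without TT-584.

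H2-Aa, the α chain of the same dimer, was at 5.56, 5.90, 2.92, 2.13 and 1.87 TPM in control mice and at 3.55, 2.95, 1.24, 1.92 and 2.54 TPM in HFD+mTAC mice. The pattern was the same, with TT-583 and TT-584 on top. In CPM the means were 59.3 ± 16.2 and 48.0 ± 7.17 (SD, n = 5 each). H2-Aa had the smallest unadjusted p of the members (0.0998 in edgeR), with a log2 fold change of −0.30 (SE 0.17, 95% interval −0.68 to 0.07). Its adjusted p was 0.696 in edgeR and 0.466 to 0.942 over the alternatives. It was −0.19 without TT-583 and −0.20 without TT-584. On counts, the intervals of Cd74, H2-Ab1 and H2-Aa reached down to −0.63, −0.57 and −0.68 and up to 0.19, 0.16 and 0.07. They were wider for the A chains with transcript lengths taken into account, as given below.

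H2-Eb1, the β chain of the E dimer, was near the limit of detection. In C57BL/6J mice the E α chain is known not to be made, and its locus, listed as H2-Ea-ps, was at 0 in all 10 mice. That strain trait concerns the α chain and not H2-Eb1. Whether the low H2-Eb1 values reflect the tissue or the quantification was not tested. H2-Eb1 had 14.4 and 9.47 estimated counts in TT-583 and TT-584 and none in TT-585, TT-586 and TT-587, where a count of 0 allows up to 3 counts, or 0.147 to 0.236 CPM. In HFD+mTAC mice it had 2.19, 1.98, 5.74, 17.4 and 8.34 counts, at most 1.16 CPM. The highest value was in an HFD+mTAC mouse and the next in a control mouse. With counts in 7 of 10 mice it did not pass the filter of at least 1 count in 9 mice and was not tested. H2-Ab1 had a higher TPM than H2-Eb1 in all 10 mice.

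Of the peptide exchanger, the β subunit H2-DMb1 was at 2.67, 2.25, 0.555, 1.43 and 1.21 TPM in control and at 1.41, 1.51, 1.10, 1.64 and 1.44 TPM in HFD+mTAC mice. In TPM, HFD+mTAC mice lay close together, while control mice held both the highest and the lowest value. In CPM the lowest values stood in HFD+mTAC mice (3.39 in TT-588 and 3.93 in TT-592), and control mice lay at 4.07 to 6.77. The log2 fold change on counts was −0.22 (SE 0.19, 95% interval −0.64 to 0.19), with an adjusted p of 0.824 in edgeR and 0.729 to 0.996 over the alternatives, it was −0.092 without TT-583, and its sign turned with the handling of transcript length (0.12 in limma on log2(TPM + 1)). H2-DMb2, the neighbouring copy, was at 0.011 to 0.170 TPM in control and 0.099 to 0.512 TPM in HFD+mTAC mice. Its log2 fold change was 1.40 (SE 0.56), with an adjusted p of 0.515 in edgeR. H2-DMa, the α subunit, was at 0.026 to 0.089 TPM in control mice and at 0 to 0.062 TPM in HFD+mTAC mice, at 0 in TT-590, where a count of 0 allows up to 0.231 CPM. Its log2 fold change was −0.33 with a wide interval (SE 0.64, 95% interval −1.71 to 1.06) and an adjusted p of 0.936 in edgeR.

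Ciita, the transactivator, was at 0.050, 0.038, 0.030, 0.031 and 0.011 TPM in control and at 0.033, 0.024, 0.026, 0.011 and 0.074 TPM in HFD+mTAC mice, from 8 to 45 estimated counts. The highest mouse, TT-592, and the next, TT-583, belonged to different groups. It was the only tested member with a fold change above 0 (log2 0.11, SE 0.39, 95% interval −0.73 to 0.95, adjusted p 0.966 in edgeR), and this turned to −0.20 without TT-592 and −0.07 without TT-587. At these counts the interval covered changes of 0.7 in either direction on the log2 scale.

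**Figure D2:**
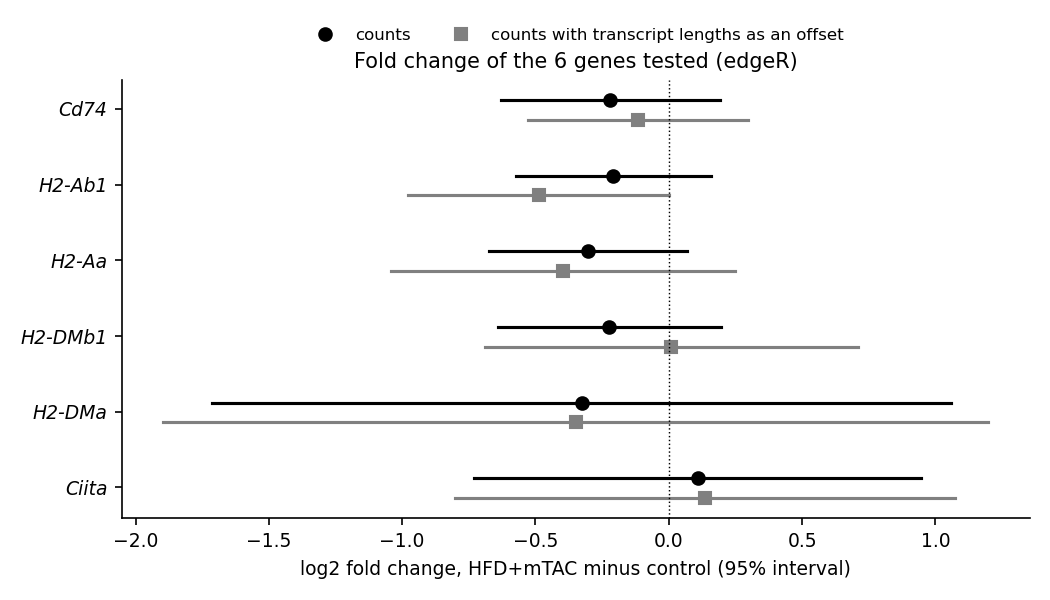
Log2 fold change of HFD+mTAC minus control with its 95% interval for the 6 genes tested with edgeR, on counts (black circles) and with the deposited transcript lengths as an offset (grey squares). Black intervals all include 0, those of Cd74, H2-Ab1, H2-Aa and H2-DMb1 end between 0.07 and 0.19, and those of H2-DMa and Ciita are wider.

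Although no member differed detectably between the groups, the chains of the A dimer and the invariant chain followed each other from mouse to mouse. In CPM, H2-Ab1 was at 60.9, 54.3, 35.3, 39.2 and 33.7 in control and at 39.1, 47.7, 37.4, 33.2 and 36.3 in HFD+mTAC mice. H2-Aa was at 77.5, 75.8, 49.6, 51.2 and 42.2, against 53.0, 58.0, 41.3, 42.7 and 45.2. Cd74 was at 209, 189, 118, 129 and 101, against 136, 159, 113, 118 and 115. All 3 genes had their highest value in TT-583, their next in TT-584 and the highest value among HFD+mTAC mice in TT-589.

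On log2(CPM + 0.5) over the 10 mice, H2-Ab1 correlated with Cd74 at r = 0.97 (permutation p 5.0e-05, adjusted over 6 relations 3.0e-04; rho 0.82, adjusted permutation p 0.0163). With H2-Aa it correlated at r = 0.95 (permutation p 1.2e-04, adjusted 3.6e-04; rho 0.84, adjusted permutation p 0.0163). Without TT-583 and TT-584, the mice farthest from the median, r was 0.89 for Cd74 and 0.81 for H2-Aa. H2-DMb1 correlated less closely (r = 0.71, rho 0.66, adjusted permutation p 0.0405 and 0.0871), and its r fell to 0.31 without these mice. Ciita (r = 0.42), H2-Eb1 (0.21) and H2-DMa (−0.02) had no correlation with H2-Ab1 that passed on this scale (adjusted permutation p 0.331, 0.666 and 0.945).

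The likeness of the 3 abundant genes was also set against all other genes, a description chosen after the values were seen. Of 6550 genes with a mean of at least 1 TPM, Cd74 and H2-Aa ranked 1 and 2 by their correlation with H2-Ab1 after values were centred on the group means (r = 0.97 and 0.95 on log2(CPM + 0.5), 10 mice). From H2-Aa, Cd74 ranked 1 (r = 0.99) and H2-Ab1 ranked 2. From Cd74, H2-Aa and H2-Ab1 again held these places, while H2-DMb1 ranked 243. Without centring, H2-Ab1 ranked 3 from H2-Aa, behind Entpd4 (r = 0.96), H2-Ab1 and H2-Aa changed places from Cd74, and from H2-Ab1 the order stayed. The points share their libraries, and no test was made.

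**Figure D3:**
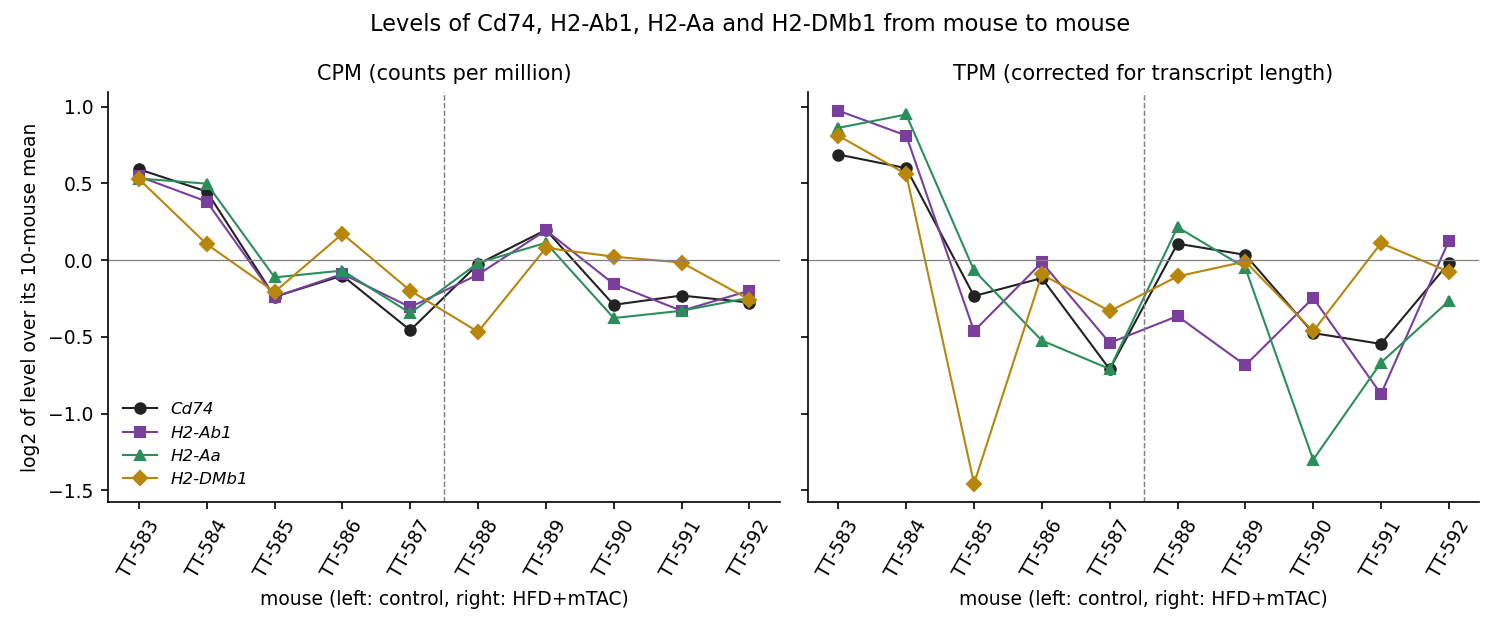
Log2 of the level of Cd74, H2-Ab1, H2-Aa and H2-DMb1 in each mouse over its 10-mouse mean, in CPM (left panel) and TPM (right panel), with control mice left of the dashed line. In CPM the lines of Cd74, H2-Ab1 and H2-Aa run together through TT-583 to TT-592, with r of 0.95 to 0.97, whereas in TPM they part in several mice, most in TT-590 for H2-Aa and in TT-585 for H2-DMb1.

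On log2(TPM + 1) the same relations were looser. Cd74 correlated with H2-Ab1 at r = 0.83 (permutation p 0.00437, adjusted 0.0262), but rho was 0.66 (adjusted permutation p 0.133) and r was 0.39 without TT-583 and TT-584. H2-Aa gave r = 0.72 (adjusted permutation p 0.0617) and −0.04 without these mice, and H2-DMb1 gave 0.67 (0.0655) and −0.04. In TPM these 3 relations thus rest on TT-583 and TT-584. Ciita, in contrast, had r = 0.64 (adjusted permutation p 0.0690), rho 0.89 (adjusted 0.00738) and r = 0.80 without these mice, a relation not seen in CPM. H2-Eb1 (r = 0.35) and H2-DMa (r = −0.25) had adjusted permutation p of 0.377 and 0.475.

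Counts and TPM differ by the effective transcript length that was fitted in each mouse. TPM and CPM differ also in the total to which each mouse is scaled. Mitochondrial genes count in the total of TPM but not in that of CPM. In TT-584 and TT-587 Cd74 had nearly the same length (899 and 900 bases), at 37.6 and 15.2 TPM but 189 and 101 CPM. For H2-Aa the effective length ran from 2297 to 4445 bases between mice, beyond the longest annotated transcript of 3223 bases in 2 of 10 mice. For H2-Ab1 it ran from 458 to 845 bases, below its longest transcript of 1212 bases. As a result, H2-Aa had more counts than H2-Ab1 in 10 of 10 mice but more TPM in 0 of 10. For H2-DMb1 the length was 1077 bases in TT-585 and 373 to 581 bases in the other mice, and its lowest TPM (0.555) stood in TT-585, where its 4.07 CPM lay within the range of other mice. Lengths of H2-DMa (2331 to 2751 bases) and Ciita (6403 to 8042 bases) were above their longest M21 transcripts of 2005 and 6007 bases in 10 of 10 mice. How the lengths arose was not tested. Levels of the A chains relative to each other depend on them, and so do the TPM values of the other members.

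**Figure D4:**
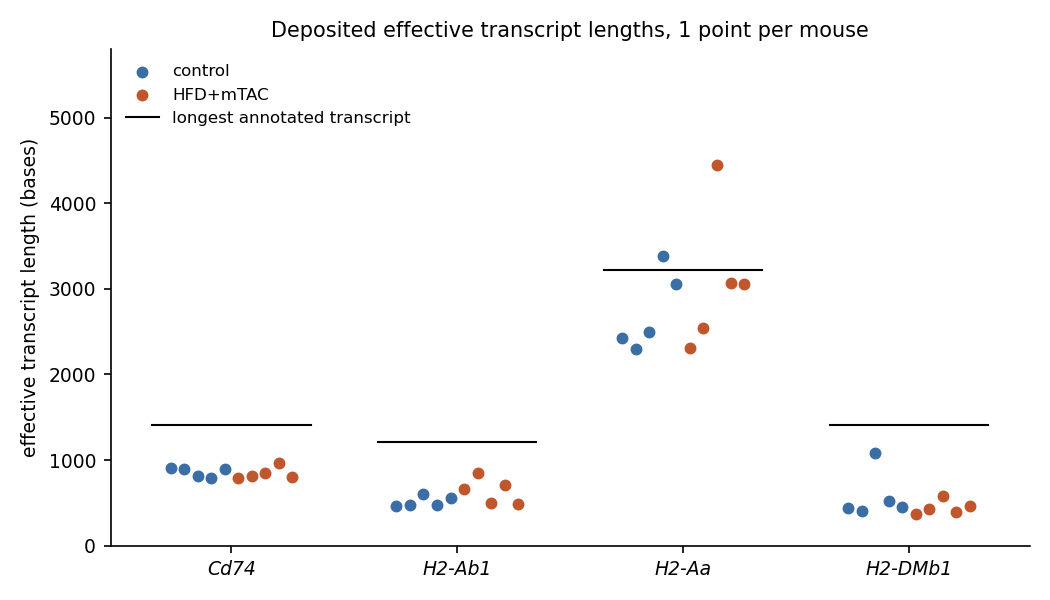
Deposited effective transcript length in bases of Cd74, H2-Ab1, H2-Aa and H2-DMb1, 1 point per mouse, with the longest transcript of the GENCODE M21 annotation as a black line. H2-Aa spreads from 2297 to 4445 bases and passes its line in 2 mice, while H2-Ab1 stays between 458 and 845 bases.

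With transcript lengths as an offset in edgeR, the fold change of H2-Ab1 was −0.49 (95% interval −0.98 to 0.0025, unadjusted p 0.0510, adjusted p 0.669), more than 1.5 times its value on counts, and that of H2-Aa was −0.40 (−1.04 to 0.25). That of Cd74 was −0.12 (−0.53 to 0.30), and that of H2-DMb1 was 0.010 (−0.69 to 0.71). None of the 6 passed under this setting.

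Ratios within a mouse compared the partners of each complex, in TPM on the log2 scale. The ratio of H2-Ab1 to H2-Aa was 2.00 ± 0.34 in control and 1.95 ± 0.72 in HFD+mTAC mice (SD, n = 5 each, exact permutation p 0.905). The ratio of Cd74 to the sum of H2-Aa and H2-Ab1, the invariant chain relative to the dimer it guards, was 0.64 ± 0.17 in control and 0.95 ± 0.27 in HFD+mTAC mice (SD, n = 5 each). It lay at 0.48 to 0.88 in control and 0.67 to 1.31 in HFD+mTAC mice. The difference of 0.31 did not pass (two-sided exact permutation p 0.0714, adjusted over 5 ratios 0.357, smallest possible p 0.00794), and it was 0.056 in CPM. The ratio of the A chains to Ptprc, the pan-leukocyte gene for CD45, was 6.38 ± 0.39 and 6.12 ± 0.24 (SD, n = 5 each), a difference of −0.27 (exact permutation p 0.23, adjusted 0.575), which was −0.15 without TT-583 and −0.46 with TPM + 1. The ratio of H2-DMb1 to H2-DMa had a difference of 0.27 over 5 and 4 mice (exact permutation p 0.849), and that of H2-Eb1 to H2-Ab1 a difference of 0.33 over 2 and 5 mice (exact permutation p 0.810), where 21 arrangements allow no p below 0.0952.

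Beyond the members, 168 genes in 20 lists of pathway genes and cell type markers were read from the same fit. Of the 129 tested, 0 had an adjusted p under 0.05 in edgeR, 8 had an unadjusted p under 0.05 (6.20%, 2 higher and 6 lower), where 8.26% of all genes did (3.72% lower). DESeq2 called 1 of them, Calr, and 120 of all 13301 genes. These lists were written with earlier results of these data known, and they are described by counts alone.

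The known regulators of MHC transcription were detected in at least 9 mice each. All 8 were tested, 7 had a fold change below 0, and the median was −0.07. Nfyc, a subunit of NF-Y, was the most abundant (8.70 TPM, log2 fold change −0.07, adjusted p 0.894 in edgeR), and Rfx5, the DNA-binding subunit of RFX, was at 0.437 TPM (0.16, adjusted p 0.910). Of the other class II region genes, 4 of 5 were tested. H2-Ob, the β chain of the H2-DM inhibitor H2-O, was at 0.0578 TPM with a log2 fold change of 0.16 (adjusted p 0.956 in edgeR).

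Of the endosomal proteins that prepare class II peptides, 7 were tested, and 5 had a fold change below 0 (median −0.05). Ctss, the protease that trims Cd74, was at 3.61 TPM with a log2 fold change of −0.09 (SE 0.15, adjusted p 0.926 in edgeR). Ctsd and Ctsb, general endosomal proteases, were at 83.8 and 15.7 TPM with fold changes of 0.0066 and −0.046 (adjusted p 0.994 and 0.927). Costimulatory genes were low, with 4 of 6 tested, 2 on each side of 0.

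MHC class I molecules present peptides from inside the cell. The list of 20 class I presentation genes had a higher summed TPM than the 7 class II genes in every mouse, much of it from B2m. It included genes with wider roles, such as Calr (73.7 TPM) and Psme1 (61.3 TPM). The list also held genes below Cd74, such as Canx (21.3 TPM) and Tap1 (1.74 TPM). All 20 were tested, 11 had a fold change below 0, and the median was −0.01. B2m, the light chain of class I, was at 408 TPM (log2 fold change −0.06, SE 0.14, adjusted p 0.940 in edgeR), and H2-K1, a heavy chain, at 29.7 TPM (−0.0040, SE 0.11, adjusted p 0.997). Calr, a chaperone that loads class I among many other proteins, had −0.39 (SE 0.10, adjusted p 0.261) and passed in DESeq2.

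Macrophage markers were high in the same 2 mice as the class II genes, but in TPM so were markers of several other cell types. The summed TPM of 9 macrophage genes was 69.0 in TT-583 and 75.4 in TT-584, and 35.2 to 51.3 in the other 8 mice. The resident macrophage list gave 16.1 and 14.4 TPM in these mice, and the pan-leukocyte list 7.87 and 9.33 TPM, also the 2 highest values of each. Lyz2, a lysozyme of myeloid cells, was at 28.4 and 29.4 TPM there and at 10.5 to 16.8 TPM elsewhere. Csf1r, the receptor for macrophage growth factor, was at 2.44 and 2.49 TPM there, but TT-588 had 2.46 TPM. In TPM, TT-583 and TT-584 were also the 2 highest mice for endothelial (75.6 and 74.4 TPM, others 38.8 to 64.4), fibroblast (155 and 146, others 73.8 to 120) and ventricular cardiomyocyte markers (22510 and 24050, others 16667 to 20984), so for 6 of the 20 lists in all. In CPM they were the 2 highest for 1 of the 20, the macrophage list (470 and 490, others 308 to 453), and for the class II genes (358 and 326, others 183 to 273). Of the 9 macrophage genes, 5 had their 2 highest values in these mice in TPM and 2 in CPM. Cd68, a lysosomal protein of macrophages, was at 13.6 CPM in TT-583 and 22.1 CPM in TT-590, and C1qa, a complement subunit, at 74.8 and 81.5 CPM, examples picked on their values. The sums in CPM were added after the data were seen.

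Between the groups, 0 of 9 macrophage genes passed, 5 had a fold change above 0 and 4 below, and the median was 0.00293, beside −0.22 for the class II members. Ventricular cardiomyocyte markers (median −0.22, 7 of 7 below 0, 2 with an unadjusted p under 0.05 in edgeR), red cell markers (−0.23, 5 of 5 below 0) and dendritic cell markers (−0.25, 4 of 6 below 0) had medians like that of the class II members, and 0 of them passed. The part of cell content and of the mitochondrial share in the class II values was not tested.

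Markers of other presenting cells were scarce. The dendritic cell list summed to 0.990 to 2.77 TPM, of which Zbtb46, which endothelial cells also express (0.610 to 1.48 TPM), made up 38.3 to 70.3% and Clec10a, a lectin of myeloid cells, most of the rest in TT-584 and TT-587 (1.22 and 1.39 TPM). Its defining genes Flt3 (up to 0.0114 TPM) and Xcr1 (up to 0.0129 TPM) were at 0 in 1 and 5 mice. Of 6 dendritic genes tested, 4 had a fold change below 0, and 0 passed. B cell markers summed to 2.51 to 7.33 TPM, with Ighm (2.56 TPM) and Ebf1 (1.19 TPM) the largest on average. In TPM the sum was highest in TT-586 and TT-588 rather than in TT-583 and TT-584. In CPM TT-583 and TT-584 ranked 7 and 10 of 10 mice. Ebf1 alone held 44.6 of the 62.1 CPM in TT-583 and 34.7 of the 46.1 CPM in TT-584, so this rank rests mostly on that gene. T cell markers summed to 0.549 to 1.20 TPM, and monocyte markers to 1.63 to 4.89 TPM. None of the tested genes in these lists passed.

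Interferon-γ is the known inducer of Ciita, and genes of its pathway were read beside the class II genes, with no test of the relation. Ifng itself was at 0 in 7 of 10 mice and at most 0.0240 TPM. Of 19 genes tested, 15 had a fold change below 0 and 0 passed, with a median of −0.29. A single control mouse, TT-586, carried this direction. It had the highest CPM of all 10 mice for 14 of the 19 genes, and the median gene lay 1.22 above the mean of the other 9 mice on the log2 scale. Without TT-586, 6 of the 19 genes were below 0 and 13 above, the median was 0.10, and again 0 passed.

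The genes that follow were named after their values were seen. Gbp4, an interferon-induced GTPase, was at 34.8, 33.5, 34.7, 112 and 44.7 CPM in control and at 34.3, 30.8, 25.1, 33.9 and 24.1 CPM in HFD+mTAC mice. Gbp2, a related GTPase, was at 117 CPM in TT-586 and 43.1 to 62.4 CPM in the other 9 mice. Tap1, a class I peptide transporter, was at 46.4 CPM in TT-586 and 13.4 to 25.9 CPM elsewhere, and Psmb9, an immunoproteasome subunit, at 16.4 and 4.26 to 10.7 CPM. The class II genes of the same mouse lay within the range of the others. H2-Ab1 was at 39.2 CPM in TT-586 and 33.2 to 60.9 CPM in the other mice, Cd74 at 129 and 101 to 209 CPM, and Ciita at 1.55 and 0.614 to 2.76 CPM. In TT-583 and TT-584, the mice with the most class II RNA, the interferon-γ list lay at −0.20 and −0.19 for the median gene, relative to the mean of the other 9 mice on the log2 scale.

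**Figure D5:**
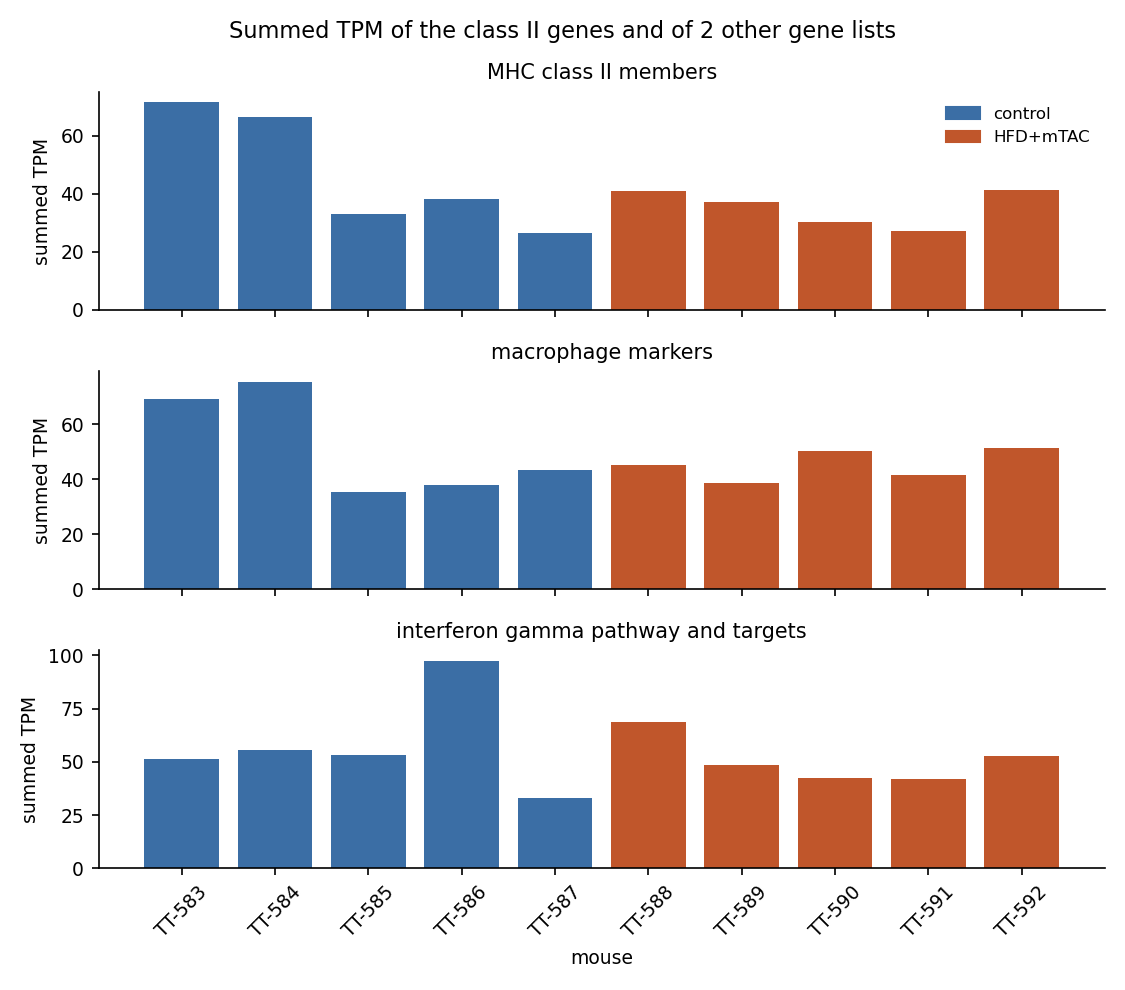
Summed TPM per mouse of the 7 class II genes (top), 9 macrophage markers (middle) and the interferon-γ list (bottom), in control (blue) and HFD+mTAC mice (orange). TT-583 and TT-584 are highest in the upper panels (71.6 and 66.6 TPM for class II, 69.0 and 75.4 TPM for macrophage markers), and TT-586 in the lower one (97.5 TPM). In TPM the sums of endothelial, fibroblast and ventricular markers, not drawn, are also highest in TT-583 and TT-584.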

How the data were processed

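Left ventricular polyA RNA of 10 mice was measured. Per the labels and the study's methods, reads were quantified with Salmon 1.6.0 on GENCODE transcripts. The methods name GRCm38 and paired reads, whereas the labels name hg38 and single-end reads, and the gene names are those of mouse. The authors deposited estimated counts per gene, not normalized (20.07% are not whole numbers), TPM, and effective transcript lengths in bases. TPM equalled counts over length within a relative difference of 0.000507 for values above 0.1 TPM, so a change in the fitted length changes TPM but not counts.

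Of 29564 symbols, 27812 matched GENCODE M21, 879 through an earlier name and 873 not at all. Genes were tested when protein-coding, not mitochondrial and with at least 1 count in 9 of 10 mice (13301 genes). After rounding, counts were tested with edgeR 4.0.16 in R 4.3.3 (TMM, quasi-likelihood, Benjamini-Hochberg over all genes tested, threshold 0.05), using all 10 mice without a covariate, as no batch is labelled. DESeq2 1.42.0, limma 3.58.1, other filters and scalings, transcript lengths as an offset and the omission of each mouse were alternatives. On simulated data with 13301 genes, edgeR called 96 of 100 genes whose log2 level was shifted by 1 and 20 of 100 shifted by 0.5. The shifted genes were drawn from those above 1 CPM, and every gene was given the same spread between mice (common dispersion 0.0422). H2-DMa, at a mean of 0.763 CPM, lay outside that pool. These rates are therefore not the chance of finding a change in the class II members. Ratios were tested by exact two-sided permutation (252 arrangements) and correlations with 100000 permutations, in Python 3.11.15. Adjusted p-values of correlations and ratios are Benjamini-Hochberg values within their family.

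The members and the lists were chosen with earlier results of these data known. Besides the members, the rule for names selected, of each list, genes with an adjusted p under 0.05, its first gene and the 2 most abundant. The text names only part of this selection, and names Xcr1, Cd68, H2-Ea-ps and interferon-induced genes outside it, picked with their values known. Adgre1, H2-Ea, Ifi30 and Fcmr were not analysed here, and some genes of the lists are not reported here by name. Each sample is a separate mouse, named by its number in the labels.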

Additional observations from a re-analysis of the deposited data

Results flagged for a closer look

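In each group of 4 or 5 mice, the gap of the extreme mouse to its nearest neighbour was divided by the range of the group and held against Dixon's critical value at the 95% level. Chance passes about 1 in 20 such groups. Among the class II genes and their ratios, 1 of 37 groups passed. The log2 ratio of H2-DMb1 to H2-DMa in HFD+mTAC mouse TT-592 was 6.46 (gap over range 0.833), in a group of 4 because TT-590 had H2-DMa at 0, and the H2-DMa value of TT-592 rests on 3.73 estimated counts.

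For 18 genes of the interferon-γ list the same was done after their values had been seen, and 11 of 36 groups passed, all of them in control mice and 10 of them through TT-586. In this mouse Irf1 was at 78.7 CPM, Gbp2 at 117, Gbp3 at 72.2, Gbp4 at 112, Gbp5 at 50.5, Gbp7 at 133, Igtp at 82.2, Iigp1 at 256, Irgm1 at 65.8 and Irgm2 at 112 CPM, each above the other 4 control mice. The remaining one was a low value, Ifngr2 at 125 CPM in TT-587. These genes are induced together, so the flags are not separate observations. The class II genes of TT-586 did not pass this limit in CPM or TPM.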

How the results depend on the processing

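No paired analysis was possible because the groups share no mouse numbers and the labels give no pairing. No member had an adjusted p under 0.05 in any of the 20 alternatives of the edgeR fit, DESeq2 and limma included. H2-Aa, H2-Ab1 and Cd74 stayed below 0 in all 20, H2-DMb1 in 17 of 20 and H2-DMa in 18 of 19 (it has no value under a mean of at least 1 CPM). The number of all genes called was 8, and it was 120 with DESeq2, 1 with limma on either pseudocount, 1 with lengths as an offset, and 1 to 9 when 1 mouse was left out. The list genes called were 0, and 1 with DESeq2, a count added after the data were seen.

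Reversed fold changes were those of H2-DMb1 with limma (0.12 on log2(TPM + 1), 0.15 on log2(TPM + 0.1)) and with lengths as an offset (0.010), of H2-DMa without TT-585 (0.032, range −0.74 to 0.032), and of Ciita without TT-587 (−0.07) or TT-592 (−0.20, range −0.20 to 0.31). Reversed ratio differences were H2-Ab1 to H2-Aa in CPM (0.10, and −0.31 to 0.11 with 1 mouse left out), H2-Eb1 to H2-Ab1 in CPM (−0.18, and −0.17 to 0.64) and H2-DMb1 to H2-DMa with TPM + 1 (−0.034), in CPM (−0.13, and −0.31 to 0.64). None of these passed a test in either direction. The causes were not tested.

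Correlations with H2-Ab1 crossed the threshold for H2-Aa in CPM (0.95, and 0.59 to 0.80 with 1 mouse left out in TPM), H2-DMb1 in CPM (0.71) and centred on group means (0.72, and 0.47 to 0.79), Ciita centred (0.75, and 0.56 to 0.85) and H2-Eb1 with 1 mouse left out (0.15 to 0.83). That of Cd74 no longer passed without TT-583 (0.73) or TT-584 (0.76, range 0.73 to 0.90). Depth limits H2-Eb1, H2-DMa and Ciita, which rest on at most 45 counts in a mouse. The labels do not say whether the mice were processed together.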

Other observations

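The 5 genes with a mean of at least 1 TPM whose log2(CPM + 0.5), centred on the group means, was most like the mean of the 6 tested class II members were Decr1 (r = 0.91), Paip1 (0.90), Entpd4 (0.89), Sh3bgr (0.89) and Cdk5rap1 (0.89), over 10 mice. The mean weighs all 6 members alike, H2-DMa and Ciita with their few counts included. Decr1 was not among the 5 genes most like H2-Ab1, H2-Aa or Cd74 taken alone, whereas Entpd4 was for H2-Aa and for Cd74. None of the genes named is a class II or macrophage marker of the lists used here, apart from these members. Decr1, a mitochondrial enzyme of fatty acid oxidation, correlated at −0.04 without centring, so that its likeness holds within the groups alone. It had a log2 fold change of 0.45 and an adjusted p of 0.0932 in edgeR. No test was made of these correlations, which were picked as the highest of many.

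Red cell markers, a sign of blood left in the tissue, summed to 90.2 to 877 TPM in control and 95.4 to 861 TPM in HFD+mTAC mice, and 0 of 5 passed. Adipocyte markers summed to at most 0.700 TPM and mesothelial markers to at most 6.04 TPM in any mouse. Nearly all of the mesothelial sum came from Wt1 (6.03 TPM in TT-584), while Msln was at 0 in all 10 mice. Endothelial markers (38.8 to 75.6 TPM) and fibroblast markers (73.8 to 155 TPM), from cells that can also carry class II genes, had 0 of 5 genes each past the threshold in edgeR, with medians of 0.10 and 0.06 on the log2 scale.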
